A study of Mus musculus with 10 samples.

Results

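KLF3 occupied 2110 promoter sites at which no KLF1 peak was listed. They were selected on the called peak intervals of both factors, as the rows of the KLF3 peak list that the authors annotated as promoter and whose interval shares no base with any of the 3800 rows of the KLF1 list. They make up 69.3% of the 3043 promoter rows and belong to a list of 4579 KLF3 rows. The other 933 promoter rows share at least 1 base with a KLF1 row and serve as the comparison. The 2110 rows hold 2037 distinct intervals, because an interval with more than 1 summit is listed once per summit, and they lie at 2028 genes.

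KLF3 ChIP-seq came from J2E-KLF3-ER clone C and used an antibody to the estrogen receptor. J2E is an erythroid line immortalised from mouse fetal liver, and clone C is a single clone of it that carries KLF3 fused to an estrogen receptor domain. KLF1 ChIP-seq came from other cells, K1-ER clones A and C, which are KLF1-null erythroblasts with an inducible KLF1-ER transgene, and used an antibody to KLF1. Both lines received 200 nM 4-hydroxytamoxifen for 3 h before fixation, and every ChIP and input library was made from 3 pooled replicates. New RNA, labelled with 4-thiouridine for 30 min, was sequenced from 3 libraries of induced J2E-KLF3-ER (clones A, C and E) and 3 of J2E without transgene, 2 given tamoxifen and 1 given ethanol. KLF1 and KLF3 thus differ in cell line, antibody and transgene at once, so a site without a KLF1 peak and a site where KLF1 escaped detection cannot be told apart. J2E-KLF3-ER cells hold the fusion on top of their own KLF3, and the antibody marks only the fusion.

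Krüppel-like factors bind GC-rich boxes with a CACCC core through zinc fingers at their carboxyl end, which differ little between members. KLF1 is the erythroid activator of the family. KLF3 is a repressor that recruits CtBP corepressors, and the gene that encodes it is itself activated by KLF1 in red cell precursors.

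Promoter sequence was read from RefSeq windows of build GRCm38.p6, which reach from 250 bases before to 50 after each start; the peak coordinates below are those of the deposited mm9 lists. A window was found for 1679 of the 2028 genes (82.8%), and 1324 have exactly 1. Stretches of 150 bases from 8 of them are printed 5′ to 3′ on the gene's strand, with every KLF-type box CCNCNCCC in capitals, whichever strand it lies on. Cggbp1, Rad23b, Cnot10 and Adam10 had 4 of the highest sites, Dusp1, Cdkn2b and Erf had new RNA that fell, and Eef2 had new RNA that rose.
Cggbp1: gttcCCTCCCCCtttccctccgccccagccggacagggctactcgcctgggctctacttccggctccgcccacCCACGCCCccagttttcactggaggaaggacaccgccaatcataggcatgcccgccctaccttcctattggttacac
Rad23b: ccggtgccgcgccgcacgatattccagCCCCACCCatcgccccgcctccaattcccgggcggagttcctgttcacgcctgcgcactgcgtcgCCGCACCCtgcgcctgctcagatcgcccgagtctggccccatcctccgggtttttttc
Cnot10: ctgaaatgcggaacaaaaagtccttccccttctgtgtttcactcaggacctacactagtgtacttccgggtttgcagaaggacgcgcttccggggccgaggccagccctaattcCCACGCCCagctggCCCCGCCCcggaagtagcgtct
Adam10: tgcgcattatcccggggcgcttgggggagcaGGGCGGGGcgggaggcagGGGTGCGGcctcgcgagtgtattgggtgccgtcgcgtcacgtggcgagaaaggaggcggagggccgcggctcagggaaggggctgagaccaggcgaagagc
Dusp1: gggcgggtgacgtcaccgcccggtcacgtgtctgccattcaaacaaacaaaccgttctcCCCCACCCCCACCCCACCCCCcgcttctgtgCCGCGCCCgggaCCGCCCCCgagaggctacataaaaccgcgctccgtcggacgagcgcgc
Cdkn2b: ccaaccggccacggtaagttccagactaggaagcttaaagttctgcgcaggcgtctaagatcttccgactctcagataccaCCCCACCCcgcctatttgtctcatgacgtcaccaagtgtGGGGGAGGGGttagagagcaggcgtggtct
Erf: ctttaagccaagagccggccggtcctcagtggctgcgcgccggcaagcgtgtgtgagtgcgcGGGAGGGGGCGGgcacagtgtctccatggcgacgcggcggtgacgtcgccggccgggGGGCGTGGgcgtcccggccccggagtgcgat
Eef2: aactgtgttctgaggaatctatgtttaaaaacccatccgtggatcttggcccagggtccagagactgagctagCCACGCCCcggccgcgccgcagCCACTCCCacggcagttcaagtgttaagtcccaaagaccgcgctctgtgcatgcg
The stretches of Cggbp1 and Eef2 run from 250 to 101 bases before the start and the others from 150 to 1 before it. In GRCm38.p6 they lie at chr16:64851751-64851900 on the plus strand (Cggbp1), chr4:55349892-55350041 on the plus strand (Rad23b), chr9:114640201-114640350 on the minus strand (Cnot10) and chr9:70678832-70678981 on the plus strand (Adam10). Dusp1 lies at chr17:26508473-26508622 on the minus strand, Cdkn2b at chr4:89311033-89311182 on the minus strand, Erf at chr7:25250759-25250908 on the minus strand and Eef2 at chr10:81176381-81176530 on the plus strand. Dusp1 holds 7 overlapping or neighbouring boxes in its stretch, and Cdkn2b and Erf hold 3 each. The centre of the nearest box lay 5 bp from the KLF3 summit at Cnot10, 7 bp at Eef2, 8 bp at Cdkn2b and 9 bp at Dusp1. It lay 12 bp from the summit at Erf, 13 bp at Adam10, 20 bp at Cggbp1 and 28 bp at Rad23b. These 8 promoters are examples and need not be typical of the 1324. Among 510 KLF3-only sites with 100 bp of window on both sides of the summit, 46.1% had a box centre within 25 bp.

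Boxes of the KLF type were common in the promoters with a KLF3-only site. The window held CCNCNCCC in 85.8% of the 1324 genes with 1 window (95% exact interval 83.8 to 87.6), in 91.3% of 518 genes with a shared site (88.5 to 93.6), in 58.3% of 3872 tested genes with no peak of either factor and in 48.1% of all 22862 windows. The strict form CCACACCC, the classic CACCC box of erythroid genes, stood in 5.14% of KLF3-only windows (4.01 to 6.47) and 6.76% of shared windows (4.75 to 9.27), against 3.02% with no peak and 3.58% of all windows. CCACGCCC, a form added after the windows had been seen, had, of these forms, the largest ratio of KLF3-only windows to all windows, with 19.6% of KLF3-only windows (17.5 to 21.9) and 26.6% of shared windows (22.9 to 30.7), against 6.51% with no peak and 5.31% of all windows. CCCCGCCC, the GC box read by SP factors, stood in 55.1% of KLF3-only windows and 60.04% of shared windows, against 24.9% with no peak and 17.4% of all windows. These 3 strict forms are all special cases of CCNCNCCC, and both strands were searched. A match describes letters in a window and not a bound site.

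Windows with a KLF3 site were also richer in G and C. The median GC content was 64.7% for KLF3-only sites and 66.0% for shared sites, against 58.7% with no peak and 52.3% for all windows. Within windows of 60 to 70% GC, CCACGCCC stood in 21.0% of the 695 KLF3-only windows and 29.2% of the 284 shared windows, against 8.71% of 1309 windows with no peak. Within the same range CCCCGCCC stood in 57.0%, 59.9% and 32.9% of these windows, in that order, and CCNCNCCC in 88.6%, 92.6% and 71.3%. At 70% GC and above CCACGCCC stood in 20.7%, 23.3% and 9.33%, and CCCCGCCC in 68.1%, 69.9% and 56.0%. There CCNCNCCC stood in 93.1%, 94.7% and 91.3%, so for this form the classes differed little at the highest GC. The TATA box TATAAA was found in 4.38% of KLF3-only windows, 4.44% of shared windows, 8.32% with no peak and 14.8% of all windows. The GATA-type site AGATAA stood in 3.78, 5.21, 6.84 and 11.5% of these windows, in that order. These 2 motifs were not compared within ranges of GC. The ETS box CCGGAAGT (8.91%), the NF-Y box CCAATCNN (21.5%) and the cAMP response element TGACGTCA (3.32%, 2.42 to 4.44) stood beside 11.5%, 24.2% and 3.95% in windows with no peak and 3.95%, 16.7% and 1.85% in all windows. For TGACGTCA the interval holds the share with no peak. At 70% GC and above the NF-Y box stood in 15.8% of KLF3-only windows and 13.2% of windows with no peak, and at 60 to 70% GC in 23.5% and 26.4%, so the direction of this difference, which was not tested, was not the same at both GC ranges.

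Most KLF3-only summits lay just upstream of the start. Of the 2110 summits 83.2% were upstream of the nearest start (81.5 to 84.7), against 85.0% of the shared summits (82.5 to 87.2). The median position was 72 bp upstream for KLF3-only sites and 86 bp upstream for shared sites. The quartiles of the KLF3-only summits were 146 and 23 bp upstream, and 59.0% lay within 100 bp of the start, against 52.3% of the shared ones. Only 95 rows (4.50%) lay more than 500 bp from a start, against 6.54% of shared rows. The promoter annotation itself selects on this distance, so these values describe the sites and are not a test.

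**Figure D1:**
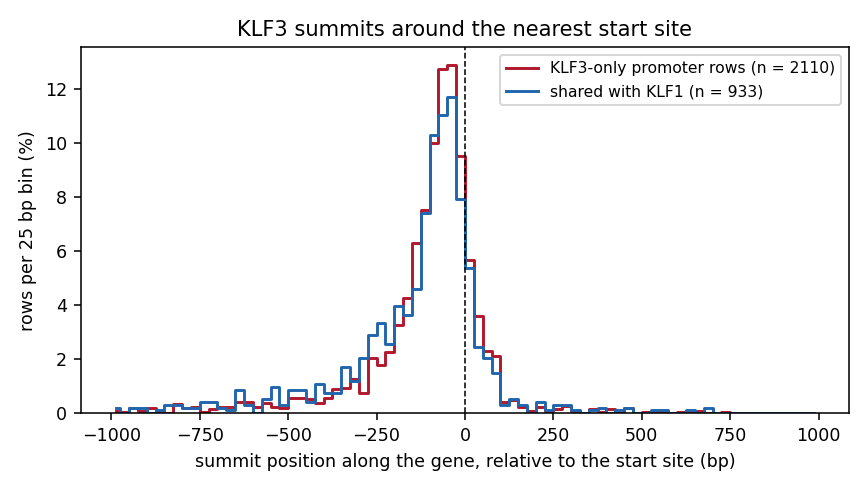
Share of rows per 25 bp bin (y axis, percent) against the KLF3 summit's position along the gene relative to the nearest start (x axis, bp; negative is upstream), for the 2110 KLF3-only promoter rows in red and the 933 shared rows in blue. Both peak just upstream of the start, with medians 72 bp and 86 bp upstream.

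The median place of CCACGCCC, a form added after the windows had been seen, moved toward the start as the KLF3 summit did. KLF3-only summits were sorted by their position and the median place of each box upstream of the start was taken. CCACGCCC had its median 150 bp upstream where the summit lay 200 to 151 bp upstream (29 boxes in 104 windows) and 114 bp upstream where it lay 150 to 101 bp upstream (65 boxes in 184 windows). The median was 66 bp upstream for summits 100 to 51 bp upstream (65 boxes in 319 windows) and 45 bp upstream for summits in the last 50 bp (65 boxes in 322 windows). In all windows it was 82 bp upstream. GC boxes shifted less over the same 4 groups, from 109 bp through 81 and 59 to 44 bp upstream, and degenerate boxes from 114.5 bp through 94 and 72 to 57 bp upstream. CCACACCC, with 4 to 19 boxes in a group, had medians of 146.5, 132, 99 and 39 bp upstream. The medians of GC boxes lay outside the summit's own group for summits more than 100 bp upstream. The NF-Y box did not follow the summit: its medians were 76, 84, 93.5 and 97 bp upstream. ETS boxes, with 8 to 25 in a group, had medians of 74.5, 43.5, 34.5 and 64 bp upstream. At shared sites, sorted by summit in the same way, CCACGCCC had medians of 158.5, 102.5, 73 and 41.5 bp upstream.

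Around 510 KLF3-only summits with 100 bp of window on both sides, CCACGCCC was 2.31 times as dense within 40 bp of the summit (77 boxes) as between 40 and 100 bp (50 boxes). The same ratio was 1.85 for CCACACCC, with 16 boxes within 40 bp, 1.55 for CCNCNCCC, 1.5 for CCCCGCCC and 1.33 for the NF-Y box. It was 0.444 for the ETS box, which had 8 boxes within 40 bp. At 208 shared sites the ratio was 2.25 for CCACGCCC, 1.58 for CCCCGCCC, 1.5 for CCNCNCCC and 0.971 for the NF-Y box. A CCNCNCCC box had its centre within 25 bp of the summit at 46.1% of these sites and at 58.2% of 208 shared sites. A CCACGCCC box did so at 8.24% of KLF3-only sites and 17.3% of shared sites. The places rest on the RefSeq start being the authors' start. In the mm9 lists 1943 of the 2110 rows had a start that equals an end of the gene's row within 1 bp. That count covers mm9 coordinates only and does not check the starts of the GRCm38.p6 windows.

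**Figure D2:**
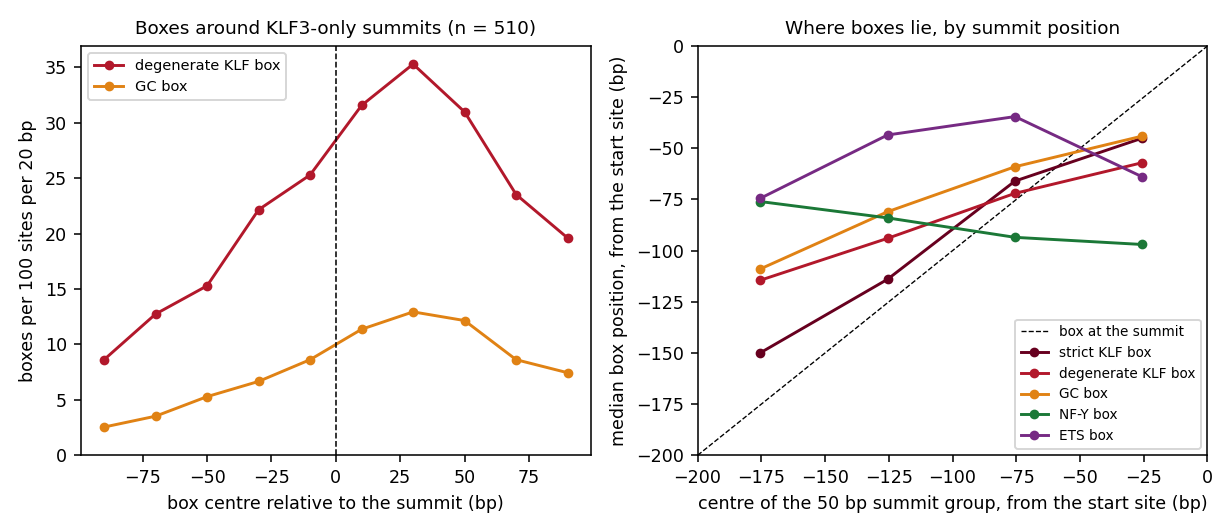
Left, boxes per 100 sites per 20 bp (y axis) against the distance of the box centre from the KLF3 summit (x axis, bp; positive is toward the gene) for 510 KLF3-only sites. Right, median box position upstream of the start (y axis, bp) against the centre of the 50 bp group that holds the KLF3 summit (x axis, bp), with the dashed line marking a box at the summit: the strict KLF box (CACGCCC form) runs beside that line, and the NF-Y box does not.

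KLF3-only promoters had lower enrichment than the shared ones, although the list's high ranks were not closed to them. The authors' enrichment had a median of 7.89 for KLF3-only rows (quartiles 6.25 and 10.7, range 3.504 to 33.6) and 10.7 for shared rows (7.30 and 15.6, range 3.12 to 47.5). The median interval was 272 bp wide for KLF3-only rows and 363 bp for shared rows. Wider intervals are more likely to share a base with a KLF1 row, so the rule itself favours narrow intervals here and the width is no finding. Shared rows were both wider and of higher enrichment, and the part of the rule in the enrichment values was not tested. These values and the ranks below describe the sites and are not a test. When all promoter rows were ranked by enrichment and divided into 5 groups of equal size, KLF3-only rows made up 77.7, 81.1, 75.04, 64.6 and 48.3% from the lowest to the highest group. Among the 100 top ranks of the whole list 14 were KLF3-only promoters and 70 were shared promoters. The best KLF3-only rank was 12, and the 10 top ranks were all shared promoters. Enrichment depends on library depth, which is unknown here, and with 1 pooled library per factor no spread between samples could be measured.

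**Figure D3:**
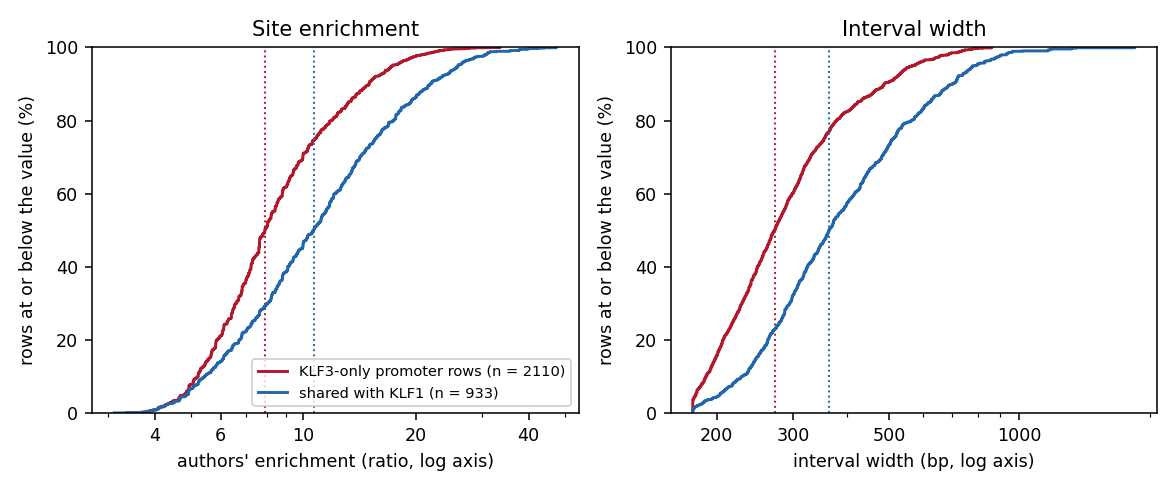
Cumulative share of rows (y axis, percent) against the authors' enrichment (left x axis, ratio, log axis) and interval width (right x axis, bp, log axis) for the 2110 KLF3-only promoter rows in red and the 933 shared rows in blue. Dotted lines mark the medians, 7.89 and 10.7 for enrichment and 272 bp and 363 bp for width; the KLF3-only curve lies to the left over most of both ranges.

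The 10 highest KLF3-only sites had enrichments of 25.1 to 33.6. The highest (enrichment 33.6, mm9 chr16:64851520-64852128, summit 222 bp upstream) was at Cggbp1, which encodes a protein that binds CGG repeats. Next came Rad23b, a DNA repair and proteasome shuttle factor (31.3, chr4:55362438-55363009), and Cnot10, a subunit of the CCR4-NOT deadenylase (28.9, chr9:114549183-114549499). The others were 2310035C23Rik (28.9), the RNA methyltransferase gene Mettl8 (27.8), the membrane protease gene Adam10 (27.8), Ppp3ca of calcineurin (27.4), Spcs3 of the signal peptidase (27.0), Cox19 (25.9) and Ptplb (25.1). All 10 were tested for new RNA, and 0 were called at a q-value below 0.05 per the authors' deposited table, with 1 at an unadjusted p below 0.05. Over all tested genes 2.72% were called and 15.4% had an unadjusted p below 0.05, so these counts do not set the 10 apart. Their log2 fold changes ran between -0.52 and 0.39 and their lowest q was 0.322 per the authors' deposited table.

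The distance to KLF1 varied widely among KLF3-only sites. The nearest KLF1 row lay within 500 bp of 52 rows, within 5 kb of 190 (9.005%) and within 100 kb of 1098 (52.0%). The members nearest to a KLF1 row were at Ccng2, the gene of cyclin G2, with a gap of 65 bp, at Rbck1 with 185 bp and at Zbed4 with 192 bp. Just outside the rule were Lnx2, D830031N03Rik and the MADS-box factor gene Mef2a, whose intervals shared 51, 65 and 112 bp with a KLF1 row. Across chromosomes the KLF3-only share of promoter rows ran from 64.3% on chromosome 3 to 74.0% on chromosome 10. A KLF1 row elsewhere, in an intron, at a distal site or at another part of the promoter, was assigned to 309 of the 2028 genes, and 23 genes also held a shared promoter row.

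Genes with a KLF3-only promoter were active genes, as were those with a shared site. FPKM of at least 1 in both groups was reached by 93.6% of the 2028 genes and 90.7% of shared genes, against 47.2% of all 23309 genes per the authors' deposited table. The authors tested 1760 of the 2028 genes (86.8%) and 84.1% of shared genes, against 41.3% of all genes. The KLF3-only genes are thus 18.3% of the 9619 tested. Their median level was 13.5 FPKM in J2E-KLF3-ER and 13.6 FPKM in J2E per the authors' deposited table. Starts that face another start within 1 kb on the opposite strand occurred at 19% of KLF3-only genes and 18.0% of shared genes, against 25.2% of tested genes with no peak and 12.3% of all genes. Of the facing genes that had no peak of their own 149 were tested; 1 of them, Cdc42se1, fell and 2, Rpl36al and Uchl5, rose.

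New RNA at KLF3-only promoters changed about as rarely as in all genes. At the authors' q below 0.05, 30 of the 1760 tested genes fell (1.70%, 1.15 to 2.42), where 1.90% of all tested genes fell. In the other direction 10 rose (0.568%, 0.273 to 1.04), where 0.821% of all tested genes rose, and 1720 were not called. An unadjusted p below 0.05 was given to 244 of the 1760, of which 123 were lower and 121 higher in J2E-KLF3-ER. The median log2 fold change was 0.01, beside 0.03 for all tested genes per the authors' deposited table. These intervals cover counting error only, and whether the difference between classes exceeds the spread between libraries could not be tested, because each group has 1 pooled value. At a q below 0.01, 19 members fell and 5 rose, where 1.15% and 0.353% of all tested genes did, and at a q below 0.1, 45 fell and 28 rose, where 2.87% and 1.69% did. Among genes at 1 FPKM or more in both groups 30 fell and 10 rose, where 1.88% and 0.816% of such genes did.

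A larger share fell among genes whose promoter site was shared with KLF1: 32 of 688 fell (4.65%, 3.20 to 6.50) and 2 rose, with a median log2 fold change of -0.10 per the authors' deposited table. Of the calls at KLF3-only genes 75% were falls, against 94.1% at shared genes, 56.6% at genes without a peak and 69.8% overall. Genes with a KLF3-only site and no KLF1 row assigned to them had 21 falls among 1490 tested genes (1.41%, 0.874 to 2.15) and 8 rises. Those with an assigned KLF1 row elsewhere had 9 falls among 270 (3.33%, 1.54 to 6.23) and 2 rises. A gene without an assigned KLF1 row can still have one nearby, as at Map7d1, where the gap was 4356 bp. Genes whose promoter held a KLF1 peak without KLF3 had 8 falls among 140 (5.71%, 2.50 to 10.9) and 1 rise, with a median log2 fold change of -0.15 per the authors' deposited table, so the larger share of falls was also seen where KLF3 had no promoter peak. Genes with no peak of either factor had 77 falls among 5924 (1.30%) and 59 rises (0.996%).

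**Figure D4:**
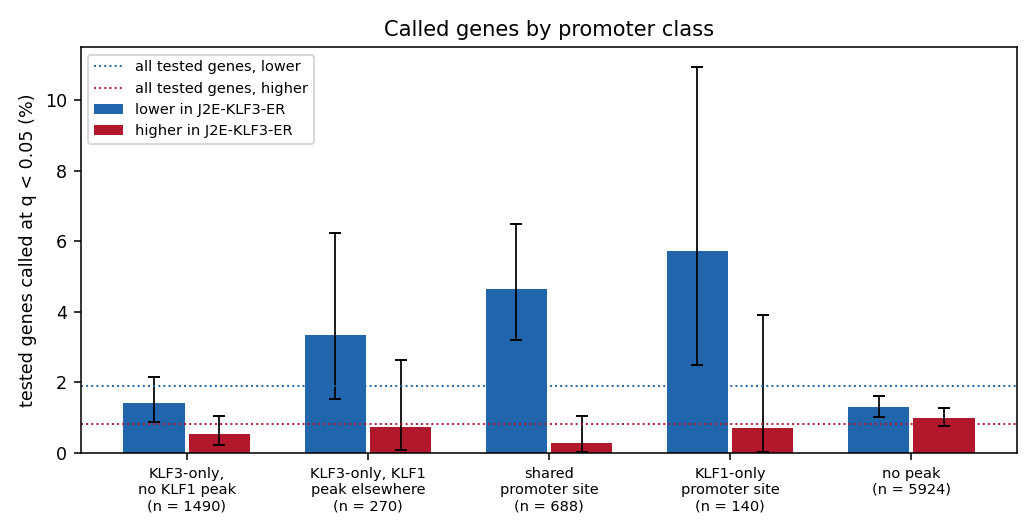
Share of tested genes called at the authors' q below 0.05 (y axis, percent) that were lower (blue) or higher (red) in J2E-KLF3-ER than in J2E, by promoter class (x axis); whiskers are exact 95% intervals for counting error, and dotted lines mark all tested genes, 1.90% and 0.821%. The KLF3-only bars of genes without an assigned KLF1 peak, 1.41% and 0.537%, sit below these lines. The bar of falling genes with a shared site, 4.65%, sits above them.

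The share of falling genes was highest where a KLF1 row lay close to the KLF3-only site. Of the tested genes whose nearest KLF1 row lay less than 5 kb away, 10 of 151 fell (6.62%, 3.22 to 11.8). The share was 1.94% of 464 genes at 5 to 50 kb, 0.842% of 831 at 50 to 500 kb and 1.27% of 314 farther away. The 10 were Tuba1b, Map3k6, Junb, Sertad3, Vim, Lmna, Zfp36, Slc43a1, Alad and Map7d1, with gaps between 237 bp at Tuba1b and 4356 bp at Map7d1. A site of low enrichment was also the more frequent kind among falling genes. In 4 groups of the genes of about equal size by their best KLF3-only site, 13, 9, 4 and 4 fell from the lowest to the highest enrichment (2.86, 2.07, 0.926 and 0.911%). Among shared sites in the same ranges of enrichment 4 of 100, 1 of 71, 8 of 134 and 19 of 383 genes fell (4.00, 1.41, 5.97 and 4.96%). The larger share at shared sites was seen in the lowest and the 2 upper ranges and not in the one between. With 4 and 1 falling genes in the 2 lower ranges, the pattern there is uncertain.

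Calls were also read by level of expression and by chromosome. With all tested genes in 3 groups of equal size by expression, low to high, 1.36, 1.59 and 2.11% of KLF3-only genes fell, against 2.35, 5.29 and 6.05% of shared genes, 1.93, 1.03 and 0.890% of genes with no peak and 1.93, 1.72 and 2.06% of all tested genes. Fold changes in this table run lower on chromosomes 2 to 9 and X, a grouping found in these data. There 21 of 905 KLF3-only genes fell (2.32%) and 4 rose, with 2.19% of all tested genes falling. On chromosomes 1 and 10 to 19, 9 of 855 fell (1.05%) and 6 rose, with 1.60% of all tested genes falling. Shared genes fell in 6.41% and 2.74% of cases on these chromosome groups, in that order. Minus the median of its chromosome, the median log2 fold change was -0.01 for KLF3-only genes and -0.13 for shared genes per the authors' deposited table. The part of level and chromosome in the calls was not tested.

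Dusp1 and Sertad3 fell furthest among the genes with a KLF3-only promoter. Sertad3, a SERTA-domain co-regulator of transcription, stood at 1.90 FPKM in J2E-KLF3-ER and 8.01 FPKM in J2E, a log2 fold change of -2.08 (q = 0.0148) per the authors' deposited table. Its site (mm9 chr7:28258202-28258684, enrichment 9.67) peaked 429 bp upstream of the start, and a KLF1 row lay in an intron. Dusp1, a phosphatase that switches off MAP kinases, stood at 5.88 FPKM in J2E-KLF3-ER and 23.1 FPKM in J2E, -1.97 on the log2 scale (q = 0.00408) per the authors' deposited table. Its site (chr17:26645330-26645929, enrichment 7.30) peaked 96 bp upstream, close to the run of boxes printed above, and the nearest KLF1 row was 29231 bp away.

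Vim, the gene of vimentin, a filament that red cell precursors lose as they mature, had 19.5 FPKM in J2E-KLF3-ER and 72.3 FPKM in J2E (log2 -1.89, q = 0.00408) per the authors' deposited table. Genes of metabolism and growth signals followed: Agpat2, an acyltransferase of phosphatidic acid synthesis, had 3.36 FPKM in J2E-KLF3-ER and 11.5 FPKM in J2E, and Nrtn, a ligand of the GDNF family, had 4.85 FPKM in J2E-KLF3-ER and 16.6 FPKM in J2E per the authors' deposited table. Alad, an early enzyme of heme synthesis, had 6.24 FPKM in J2E-KLF3-ER and 16.7 FPKM in J2E (log2 -1.42) per the authors' deposited table, with a weak site 49 bp inside the gene (enrichment 5.57) and a KLF1 row in an intron. Every one of these genes was at less than 0.5 of its J2E level.

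Regulators of the cell cycle and of transcription were among the other falling genes. Cdkn2b, an inhibitor of cyclin-dependent kinases, had 7.73 FPKM in J2E-KLF3-ER and 18.0 FPKM in J2E (log2 -1.22, q = 0.00408) per the authors' deposited table. Its site (chr4:88956854-88957075, enrichment 12) peaked 16 bp upstream, and the nearest KLF1 row was 2436579 bp away. Erf, an ETS-domain repressor, had 5.08 FPKM in J2E-KLF3-ER and 12.6 FPKM in J2E (log2 -1.31, q = 0.00408) per the authors' deposited table, with a site 39 bp upstream (chr7:26035729-26035904, enrichment 7.45). Gata2, the GATA factor of early progenitors, fell least, with 67.4 FPKM in J2E-KLF3-ER and 99.0 FPKM in J2E (log2 -0.55, q = 0.0231) per the authors' deposited table, and its site was one of the lowest of the list (enrichment 3.94).

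Also called were the zinc finger genes Zfp771 and Zfp821, the CAAX protease gene Rce1, the amino acid transporter gene Slc43a1 and the myosin chaperone gene Unc45a, with log2 fold changes of -1.34, -0.87, -1.34, -1.18 and -1.05 per the authors' deposited table. Slc43a1 was the most abundant of the 5, at 58.0 FPKM in J2E-KLF3-ER and 132 FPKM in J2E per the authors' deposited table. The remaining falling genes included Mir22hg, Bcl10, an adaptor of NF-kB signalling, the nuclear lamin gene Lmna and the ubiquitin ligase gene Siah2, with log2 fold changes of -1.26, -0.92, -0.74 and -0.84 per the authors' deposited table. Across all 30, the median log2 fold change was -0.96 per the authors' deposited table, 14 changed at least 2-fold and 24 had their summit upstream of the start. Of all KLF3-only summits 83.2% were upstream, so this last count does not set the 30 apart.

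The 10 rising genes, Klf3 included, had a median enrichment of 9.40, against 6.86 for the falling genes and 7.89 for all KLF3-only rows. All 10 had their summit upstream, where 83.2% of all KLF3-only summits lay. These differences were not tested. Klf3 itself stood at 180 FPKM in J2E-KLF3-ER and 7.46 FPKM in J2E (log2 4.59) per the authors' deposited table; reads of the transgene fall on this row, so it checks the labels and says nothing of the site 573 bp upstream of the Klf3 start (enrichment 6.86).

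Hibadh, an enzyme of valine breakdown, had 25.9 FPKM in J2E-KLF3-ER and 11.3 FPKM in J2E, and Arrb2, a beta-arrestin, had 24.98 FPKM in J2E-KLF3-ER and 11.9 FPKM in J2E per the authors' deposited table. They were, beside Klf3, the 2 rising genes that changed at least 2-fold, with log2 fold changes of 1.19 and 1.07 per the authors' deposited table. Eef2, a translation elongation factor, had 188 FPKM in J2E-KLF3-ER and 134 FPKM in J2E (log2 0.49, q = 0.0322) per the authors' deposited table, and its site (chr10:80639071-80639362, enrichment 14.7) peaked 166 bp upstream. Polr2e, a subunit common to the RNA polymerases, the chaperone gene Canx, Gapdh, Rps16 and Ptma rose by 0.78, 0.61, 0.70, 0.64 and 0.53 on the log2 scale per the authors' deposited table. Gapdh, Rps16, Ptma and Eef2, and Tuba1b among the falling genes, have near-identical copies in the genome, so their values are uncertain. Gapdh also held a promoter row shared with KLF1.

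**Figure D5:**
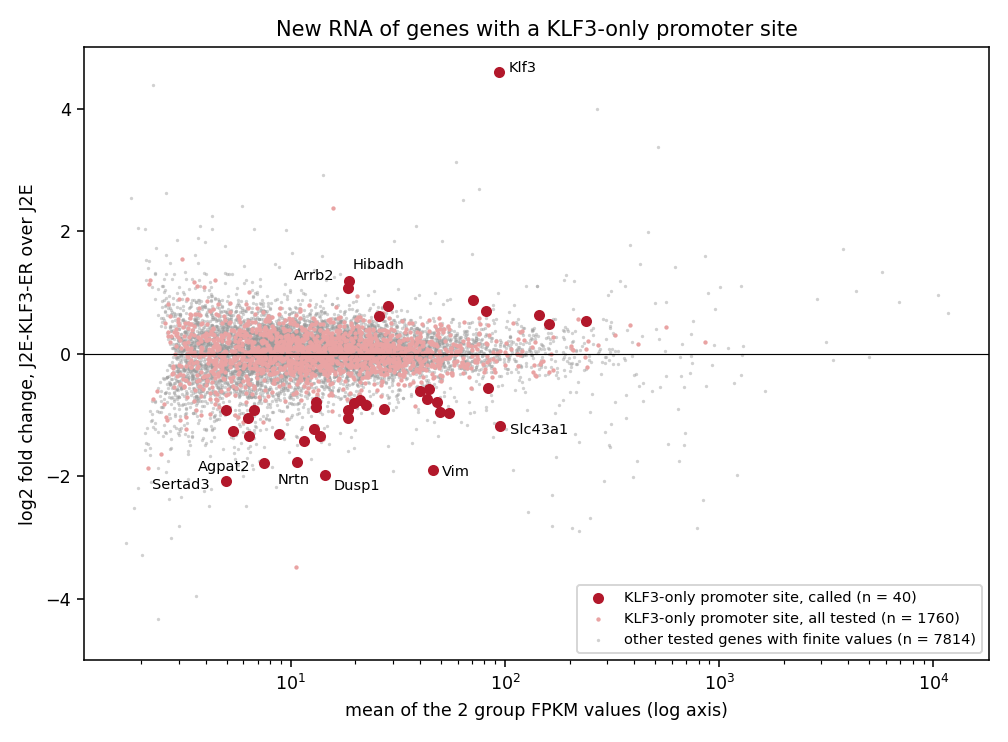
Log2 fold change of J2E-KLF3-ER over J2E (y axis) against the mean of the group FPKM values (x axis, log axis) per the authors' deposited table: large red points are the 40 called genes with a KLF3-only promoter site, pale red points all 1760 tested ones and grey points other tested genes with finite fold changes. The pale points lie around 0, and 4 genes beyond 5 on the y axis, none with a KLF3-only site, are not drawn.

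Among gene groups, autophagy and glycolysis genes carried KLF3-only sites most often for their size. Of 29 tested autophagy and lysosome genes 13 had one (44.8%), beside 18.3% of all tested genes. They included the receptor gene Optn (enrichment 20.6) and Wipi1 (17.3), and 0 of the 13 were called; their median log2 fold change was 0.01 per the authors' deposited table. Glycolysis had 8 of 16 tested rows (50%), from the glucose transporter gene Slc2a1 to Aldoa and Gapdh, of which Gapdh was called. In the translation initiation factor list 17 of 54 tested genes had a site (31.5%), and 0 of the 17 were called at q below 0.05. The highest were at Eif5a (18.2) and Eif3h (14.1). The 17 also count genes that are not initiation factors themselves, namely Eif2c1, Eif2ak1, Eif2ak4, Eif4ebp2 and Eif4enif1, so these values describe the list. An unadjusted p below 0.05 was given to 5 of the 17 (29.4%), all higher in J2E-KLF3-ER. Such a p was given to 244 of all 1760 tested KLF3-only genes (13.9%), 121 of them higher, and to 15.4% of all tested genes. The median of the 17 was 0.30, beside 0.12 for all 54, as log2 fold changes per the authors' deposited table. These differences were not tested. The list of chromatin remodellers and histone modifiers had 20 of 79 tested (25.3%), and 0 were called. Highest were Setd3 (19.2), listed here although its methyltransferase acts on actin, and Smarcd2 of the SWI/SNF complex (19.1). RAB small GTPases had 9 of 34 tested (26.5%), led by Rab8a (17.9) and Rab8b (14.7), again with 0 called. An unadjusted p below 0.05 was given to 0 of the 13 autophagy members, 1 of the 20 chromatin members and 2 of the 9 RAB members.

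Complex I, cytosolic ribosomal protein and corepressor genes had low shares beside the 18.3% of all tested genes, and the groups given after them lay nearer to it. Complex I of the respiratory chain had a site at 1 of 36 tested genes, Ndufa5, and cytosolic ribosomal proteins at 5 of 79 (6.33%), of which Rps16 rose. The corepressor complex through which KLF3 acts had 1 of 16, the histone methyltransferase gene Ehmt2 (8.57). With 16 tested genes this last share is uncertain, and the shares of the groups were not tested. Mitochondrial ribosomal proteins had 9 of 73 (12.3%), spliceosome genes 8 of 62 (12.9%), proteasome subunits 6 of 44 (13.6%), mediator subunits 4 of 28 (14.3%), VPS sorting genes 5 of 30 (16.7%) and ubiquitin-conjugating enzymes 5 of 28 (17.9%), with 0 of these members called. ZFP zinc finger genes had 33 of 218 (15.1%), of which Zfp36, Zfp771 and Zfp821 fell, and ZBTB genes had 4 of 32, with 0 called. Over all lists with 0 called by the authors' test, 14 of 110 members had an unadjusted p below 0.05, 6 lower and 8 higher in J2E-KLF3-ER. That share, 12.7%, is near the 13.9% of all tested genes with a KLF3-only site, and with 2.72% of all tested genes called a count of 0 in a short list does not set it apart.

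The erythroid groups are short lists, and differences between their shares of KLF3-only sites were not tested. Globins had 0 of 6 tested rows, and red cell membrane and blood group genes had 1 of 20, at Epb4.1, the gene of a membrane skeleton protein (5.69). Epb4.1 also held a promoter row shared with KLF1. Erythroid transcription factors had 4 of 20 tested (20%), close to the 18.3% of all tested genes, namely Gata2, Bach1, Mafk and Zfpm1, of which Gata2 fell. Heme synthesis and iron genes had 6 of 22 (27.3%), namely Aco1, Alad, Fech, Steap3, Tfrc and Urod, of which Alad fell. In the KLF and SP family the sites were at Klf13 (13.2), Klf2 (7.41), Klf3 (6.86) and Klf5 (4.94). Klf13, Klf2 and Klf5 were not called, at -0.33, -0.82 and -0.39 on the log2 scale per the authors' deposited table. KLF3-only sites stood at 0 of the tested members of the recorded KLF3-repressed genes, of which 1 was tested.

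The immediate early list, like the ZFP list, had 3 falling members, with Zfp36 counted in both. Of 22 tested immediate early and MAP kinase feedback genes 6 had a KLF3-only site, and Dusp1, Junb and Zfp36 fell while Dusp2, Egr1 and Spred2 were not called. Of the 16 genes of this list without such a site 4 fell and 1 rose, so falls were not limited to the members, and over all tested genes 1.90% fell. In the ZFP list 3 of 185 tested genes without a site fell and 2 rose. Junb, an AP-1 subunit, had 33.7 FPKM in J2E-KLF3-ER and 65.0 FPKM in J2E, and Zfp36, an mRNA decay factor, had 9.53 FPKM in J2E-KLF3-ER and 16.5 FPKM in J2E per the authors' deposited table. Both also had KLF1 rows, and a second Junb promoter row was shared with KLF1. Of 17 tested cyclin and CDK inhibitor genes 5 had a site, and Cdkn2b fell. E2F and DP factors had 2 of 10 and the BCL2 family 4 of 11, with 0 called.

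Marker genes set the context of these values. Of 9 erythroid markers 8 were at 1 FPKM or more in both groups, and their summed level was 370 FPKM in J2E-KLF3-ER and 532 FPKM in J2E per the authors' deposited table, with Epor, Klf1 and Slc4a1 falling. Alas2 had 9.28 FPKM in J2E-KLF3-ER and 6.21 FPKM in J2E (q = 0.262), Tfrc had 101 FPKM in J2E-KLF3-ER and 102 FPKM in J2E, and Gata1 and Hba-a2 were not called per the authors' deposited table. The joined row Hba-a1,Hba-a2, which shares near-identical copies, had 4.07 FPKM in J2E-KLF3-ER and 0.0208 FPKM in J2E (q = 0.664) per the authors' deposited table. Lymphoid markers had 0 of 6 at 1 FPKM and summed to 1.18 FPKM in J2E-KLF3-ER and 1.95 FPKM in J2E, and mast cell markers had 1 of 5 and summed to 1.17 FPKM in J2E-KLF3-ER and 1.96 FPKM in J2E, with Mcpt4, Mcpt8 and Fcer1a listed at 0 in both, per the authors' deposited table. Myeloid markers had 3 of 7 and summed to 24.2 FPKM in J2E-KLF3-ER and 31.5 FPKM in J2E per the authors' deposited table. Megakaryocyte markers had 3 of 6, with sums of 175 FPKM in J2E-KLF3-ER and 157 FPKM in J2E, and stromal markers had 2 of 5, with 5.704 FPKM in J2E-KLF3-ER and 8.49 FPKM in J2E, per the authors' deposited table. Fewer cells of a type and less RNA per cell cannot be told apart in such bulk samples. The part of these shifts in the calls was not tested.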

How the data were processed

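The authors deposited 1 peak list per factor, each with an enrichment ratio per peak, whose background is not stated, and 1 RNA table; per the labels' protocols, each ChIP and input library came from 3 pooled replicates and chromatin was fixed with 0.4% formaldehyde after 3 h of induction. Per the file headers, the RNA table gives FPKM (fragments scaled by length and depth), pooled to 1 value for each group, with the log2 fold change (J2E-KLF3-ER over J2E), p-value and q-value; the authors' test statistic, a score, and the score by which they ranked the peaks come as deposited. Build mm9 and the tools TopHat2 2.0.10, MACS2 and MACS 1.4.2 are named per the submitters' processing notes; which did what, and the RNA test's tool, is not given in the sources used here. RNA was labelled with 500 µM 4sU for 30 min, per the labels' protocols. Depth is unknown.

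A peak counted as shared when it had at least 1 base in common with a KLF1 row. Summit positions were turned to the gene's strand. Genes follow the authors' nearest start, and 13 KLF1 gene entries turned into dates were read back. The 93 rows without a gene name were dropped. The calls are the authors' q below 0.05, and recomputing Benjamini-Hochberg values from the p-values of the 9619 tested genes gave the same q within 5.26e-07. No p-value was computed, as no per-sample value was used (per-sample columns left unused: 0). Separate cultures are not stated for the J2E libraries, so part of the spread behind the authors' p-values may be technical. The J2E-KLF3-ER libraries also differ in clone, and the J2E libraries in treatment, tamoxifen or ethanol. Shares carry exact (Clopper-Pearson) 95% intervals for counting error; genes and sites of 1 library are not replicates. The steps were tested on simulated data. Named are the 10 highest sites, the 3 rows on each side of the rule, the 12 furthest falling and rising called genes at 1 FPKM or more in both groups, up to 4 called or else the 2 highest members per gene list, all KLF and SP genes with a site, and any called gene; other list members were named after their values were seen. Members and the 33 gene lists were chosen with earlier results of these data known. Alternatives changed the overlap rule, the promoter distance, the rank, the q threshold, the FPKM minimum and the chromosome median. Software: SciPy 1.17.1, NumPy 2.4.6, matplotlib 3.10.9 and pandas 2.3.3 under Python 3.11.15. Sequences are from RefSeq (GRCm38.p6). The values of 1 gene covered by the naming rule are not reported here.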

Additional observations from a re-analysis of the deposited data

How the results depend on the processing

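No paired analysis was possible because the deposited RNA values are 1 pooled value per group, and for the same reason no replicate could be left out. The number of sites stayed between 2037 and 2555 under other overlap and distance rules, and was 1041 when only the better-ranked 50% of KLF3 rows were kept. At a q below 0.01, 19 genes fell (1.15% of all genes did) and 5 rose (0.353%); at a q below 0.1, 28 rose (1.69%). With these better-ranked sites 8 of 894 tested genes fell and 6 rose. Without Klf3, a choice made after seeing the data, 9 rose. The median log2 fold change was 0.0148, and 0.0150 at 1 FPKM or more. It was -0.0137 after subtracting the chromosome median and 0.0235 without genes that have a KLF1 row assigned. All these values come with no spread between samples. The median enrichment was 8.01 over distinct intervals and 7.90 when KLF1 rows within 500 bp counted as shared, and the median distance to the start was 80 bp over distinct intervals. The share of windows with CCACACCC ran from 4.62 to 5.20%. Depth of both ChIP libraries is unknown, so a KLF1 site too weak to be listed would count here as KLF3-only.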
